A study of Cuscuta campestris with 9 samples.

Results

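Small RNA reads at 156 microRNA loci of the parasitic plant Cuscuta campestris (dodder) were compared between haustoria formed against leaves of Arabidopsis thaliana and haustoria formed with no host. The 6 libraries of these haustoria, 3 per group, were taken from a series of 9 by their titles, and all loci of the table were kept. The other 3 libraries, of shoot tips, were left out of the main fit so that they did not set its spread.

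A haustorium is the feeding organ with which dodder enters a host stem or leaf and joins its vessels. MicroRNAs are short RNAs released from folded precursors, and they lower the amount of messenger RNAs that carry a matching site. Dodder makes microRNAs in its haustoria that enter the host and act there. Host messenger RNAs known to be cut in Arabidopsis include those of TIR1, an auxin receptor, BIK1, a kinase of immune signalling, and SEOR1, a protein of the phloem. Whether such microRNAs need a host for their accumulation is the question that this pair of groups addresses.

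Both groups were wild-type plants of the isolate Dottie, raised on beet and Coleus in a greenhouse. Cut shoot tips of 6 to 8 cm lay on 3% agarose under 8 glass slides, got 2 h of far-red light and then 4 days of darkness. In the group with a host, detached Arabidopsis leaves lay on the tips with their lower sides against them. In the group without a host, no leaves were added. The haustoria were thus induced on cut tips and leaves in the dark, not on rooted plants. The labels call the libraries biological replicates and do not say which tips, plates or days they share, so the tests measure the spread between these libraries. No sequence of a microRNA was at hand, so loci are given by name, without the prefix ccm-, and by position on scaffolds of the assembly named in the table.

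Mapped reads numbered 11201536, 16703008 and 19244971 in haustoria with a host, and 14336549, 10857759 and 10680833 in haustoria without a host, in replicates 1 to 3. All 6 libraries were deep at these loci, with between 639830 and 1969375 reads on them. Of the 156 loci, 152 had a read in every one of the 6 libraries, and the other 4 were IIM-43c, IIM-4b, IIM-82 and IIM-83.

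The loci together took 6.10%, 5.80% and 10.2% of mapped reads in haustoria with a host, against 4.46%, 6.94% and 5.99% in haustoria without a host. At this depth the counting error was small, with a 95% exact binomial interval of 5.79% to 5.81% for replicate 2 with a host. Such intervals leave out copies made by PCR. The range with a host overlapped that without one, and replicate 3 with a host stood above the other libraries. The means were 7.38% ± 2.48 with a host and 5.80% ± 1.25 without (SD, n = 3 each), a ratio of 1.27. The difference of 1.58 percentage points did not pass an exact permutation test (two-sided p = 0.5, adjusted 0.8 over 8 values per library), and 3 against 3 libraries cannot give a p below 0.1. Without replicate 3 with a host it was 0.153 points, and without replicate 1 without a host it was 0.912 points. In the 3 shoot tip libraries the loci took 0.0283%, 0.0249% and 0.0435% of mapped reads, below each of the 6 haustorial libraries. How the loci were chosen is not given, and a choice by level in haustoria would fix this gap in advance. It therefore cannot show how well haustoria were induced in a library. Whether host RNA entered the libraries with a host was not tested. In such bulk samples, fewer haustorial cells and less RNA per cell cannot be told apart.

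**Figure D1:**
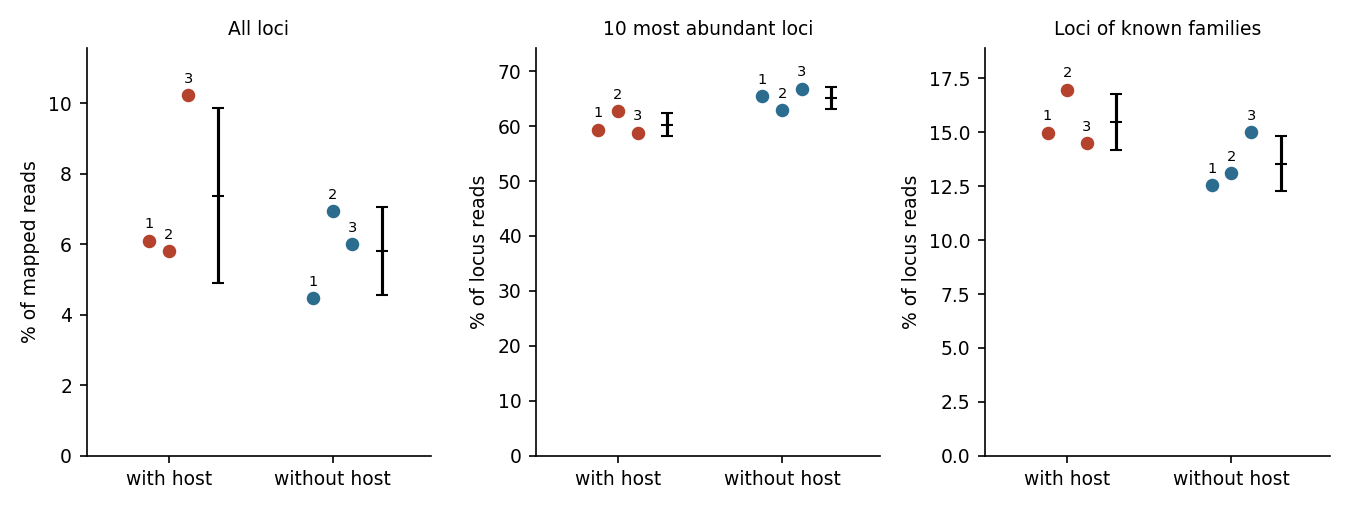
Percent of mapped reads on all 156 loci (left), percent of locus reads on the 10 most abundant loci (middle) and on the 15 loci of families known from haustoria (right), for each library, with replicate numbers at the points and the mean and SD beside them. Replicate 3 with a host is highest on the left at 10.2%, and in the middle panel all 3 libraries with a host lie below all 3 without.

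Because this total differed between libraries, each locus was compared on 2 scales. The first was its level in reads per 1000000 mapped reads (RPM), which keeps the difference in the total. The second was its share of the summed reads of the 156 loci, which takes the total out and shows how the loci stand against each other. A share is bound to a fixed sum, so a fall in abundant loci raises the shares of the rest.

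By mapped reads, 8 of 153 loci tested were higher with a host and 0 were lower (edgeR quasi-likelihood test, Benjamini-Hochberg adjusted p under 0.05). That is 5.23% of the loci tested, and IIM-4b, IIM-82 and IIM-83 had too few reads for the test. At an unadjusted p under 0.05, 39 were higher and 0 lower. DESeq2 called 24 higher (15.7%) and limma-voom 8, and neither called a locus lower. The median log2 change with over without a host was 0.64, and 139 estimates lay above 0 against 14 below. Without replicate 3 with a host the median was 0.37, with 111 estimates above 0 and 42 below. Every library with a host exceeded every one without at 50 loci (32.7%), and below them at 0.

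By share of locus reads, 16 of 152 loci tested were higher with a host (10.5%) and 0 were lower in edgeR, while 44 were higher and 4 lower at an unadjusted p under 0.05. IIM-86b was not tested on this scale in addition to the 3 loci named above. DESeq2 called 29 higher (19.1%) and 2 lower (1.32%), and limma-voom 18 higher (11.8%) and 0 lower. The median log2 change was 0.30, with 101 estimates above 0 and 51 below. Every library with a host exceeded every one without at 52 loci (34.2%), and below them at 2 (1.32%). The spread between replicates, as a common coefficient of variation, was 0.292 by share and 0.415 by mapped reads, and the median standard error of a log2 change was 0.28 and 0.51.

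Both sets of calls rest on the scale and on single libraries. With scaling factors from the loci themselves the median log2 change was -0.06 (TMM), -0.04 (DESeq2 size factors) and 0.11 (upper quartile), and edgeR then called 0 loci, with 16, 17 and 22 higher and 17, 15 and 5 lower at an unadjusted p under 0.05. Leaving out replicate 1, 2 or 3 with a host left 8, 10 and 1 calls by mapped reads, and leaving out replicate 1, 2 or 3 without a host left 1, 4 and 0. By share, the same left 24 (22 higher and 2 lower), 8 and 3 calls, and 5, 0 and 7. With the shoot tips in the fit, edgeR called 0 loci on either scale, with 12 higher and 0 lower by mapped reads and 16 higher and 1 lower by share at an unadjusted p under 0.05. DESeq2 and limma-voom were run on the 6 haustorial libraries, with the counts above.

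**Figure D2:**
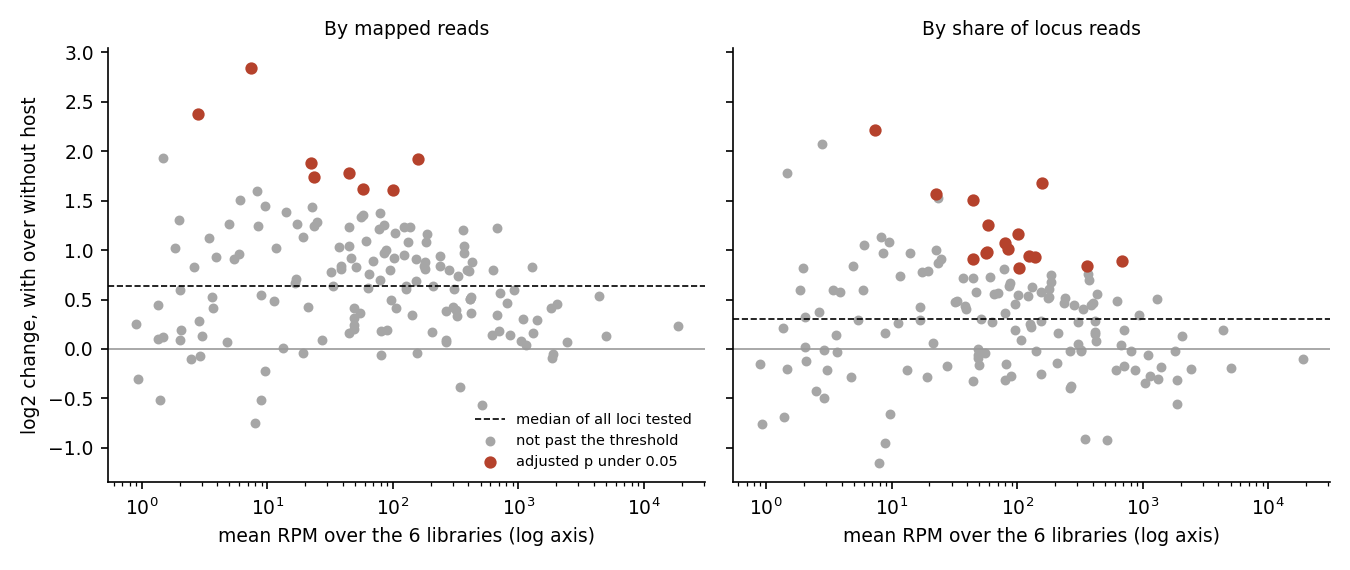
Log2 change with over without a host of each locus tested, against its mean RPM over the 6 libraries (log axis), by mapped reads (left) and by share of locus reads (right). Red points passed the threshold, 8 on the left and 16 on the right, and the dashed line is the median of all loci, at 0.64 and 0.30.

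On both scales 6 loci passed, which is 75.0% of the calls by mapped reads and 37.5% of those by share. They were IIM-42, miR12479b, IIM-29, miR12468, IIM-12b and miR12485, and both scales rest on the same reads. Numbers with miR name registered microRNAs of this species, and IIM is the authors' own label for the others in the table. The part each of these loci plays in the host or the parasite is not annotated in the sources used here. By mapped reads each of the 8 called loci passed in 2 to 4 of the 6 fits that left out 1 library. With the scaling factors from the loci, the log2 changes of the 18 loci called on either scale lay between 0.47 (IIM-2) and 1.97 (IIM-42).

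IIM-42 (scaffold 60, 1169248 to 1169334) had the largest change of all loci. Its level was 6.16, 6.77 and 26.1 RPM in haustoria with a host, against 2.86, 1.38 and 1.12 RPM in haustoria without a host. All 3 libraries with a host were above all 3 without, and replicate 3 with a host was well above the other 2. The log2 change was 2.85 ± 0.65 by mapped reads (SE, edgeR adjusted p = 0.00238) and 2.22 ± 0.60 by share (adjusted p = 0.0328). Without replicate 3 with a host it was 1.83 by mapped reads and 1.67 by share, and did not pass. It also failed without replicate 3 of the haustoria without a host, at 2.61 and 1.93, and by share without replicate 2 of them, at 1.93. Shoot tips held 27 reads of it in all.

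miR12479b (scaffold 43, 501259 to 501347) was the most abundant locus called on both scales. It had 129, 328 and 296 RPM with a host, against 30.3, 74.9 and 93.6 RPM without. The lowest library with a host was above the highest without, with replicate 1 lowest in each group. Its share of locus reads was 0.355% ± 0.186 with a host and 0.111% ± 0.044 without (SD, n = 3). The log2 change was 1.92 ± 0.52 by mapped reads (SE, edgeR adjusted p = 0.0175) and 1.68 ± 0.37 by share (adjusted p = 0.0237). By share it passed in 5 of the 6 fits that left out 1 library, failing without replicate 2 of the haustoria without a host.

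IIM-29 (scaffold 35, 1296606 to 1296695) had nearly the same share in the 3 libraries with a host, 0.0901%, 0.0963% and 0.0945%, against 0.0191%, 0.0459% and 0.0337% in those without. Its level was 55.0, 55.9 and 96.7 RPM with a host, against 8.51, 31.9 and 20.2 RPM without. The groups did not overlap on either scale. The log2 change was 1.78 ± 0.50 by mapped reads (SE, edgeR adjusted p = 0.0182) and 1.51 ± 0.31 by share (adjusted p = 0.0197).

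IIM-12b (scaffold 31, 136284 to 136374) showed the reverse spread, close together without a host and wider with one. Its share was 0.0896%, 0.146% and 0.122% with a host, against 0.0527%, 0.0486% and 0.0484% without. Its log2 change was 1.61 ± 0.49 by mapped reads (SE, edgeR adjusted p = 0.0274) and 1.26 ± 0.26 by share (adjusted p = 0.0197). IIM-29 and IIM-12b, like miR12479b, passed by share in 5 of the 6 fits with 1 library left out, and each failed without replicate 2 of the haustoria without a host, where no locus passed.

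miR12485 (scaffold 148, 459157 to 459247) had 76.3, 111 and 267 RPM with a host, against 39.3, 54.3 and 55.2 RPM without. Its log2 change was 1.61 ± 0.50 by mapped reads (SE, edgeR adjusted p = 0.03) and 1.16 ± 0.28 by share (adjusted p = 0.0328). Replicate 3 with a host was again the highest. miR12468 (scaffold 142, 389144 to 389231) had 14.998, 40.9 and 49.6 RPM with a host, against 5.30, 11.1 and 12.5 RPM without. Its log2 change was 1.88 ± 0.54 by mapped reads (adjusted p = 0.0188) and 1.56 ± 0.40 by share (adjusted p = 0.0328). miR12485 passed by share in 4 of the 6 fits that left out 1 library, and miR12468 in 2. Without replicate 3 with a host, the log2 change of miR12485 was 0.92 by mapped reads and 0.88 by share, and did not pass. Both loci were nearly unread in shoot tips, with 1 and 3 reads in the 3 libraries together.

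miR12484 and IIM-35a passed by mapped reads and not by share. miR12484 (scaffold 33, 854696 to 854785) had 20.5, 37.8 and 49.5 RPM with a host, against 2.93, 22.01 and 7.49 RPM without. It was the 1 called locus whose groups overlapped in RPM, since replicate 2 without a host lay just above replicate 1 with one. IIM-35a (scaffold 40, 502353 to 502438) was the rarest called locus, at 2.95, 4.25 and 6.81 RPM with a host, against 0.418, 1.84 and 0.468 RPM without. Their adjusted p by share was 0.0561 and 0.0512 in edgeR, close to the threshold, with log2 changes of 1.53 ± 0.48 and 2.08 ± 0.64 (SE).

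A further 10 loci passed by share alone: IIM-12a, IIM-2, IIM-22, IIM-43b, miR12466a, miR12476b, miR12488, miR12493, miR12497b and miR12497c. miR12476b, with the highest adjusted p of the 16, is named although the rule for names stopped at 15 loci. The log2 changes of the 10 loci by share lay between 0.82 (IIM-2) and 1.07 (miR12488), below those of the loci called on both scales, and their adjusted p was between 0.0328 and 0.0455 in edgeR. By mapped reads their log2 changes were 1.18 to 1.37, with adjusted p between 0.0824 and 0.113. The most abundant of them, IIM-12a (scaffold 7, 1280041 to 1280132), took 1.04%, 1.42% and 1.36% of locus reads with a host, against 0.556%, 0.750% and 0.756% without. miR12466a took 0.539%, 0.708% and 0.750% with a host, against 0.337%, 0.395% and 0.382% without. Each of the 10 passed by share in 1 or 2 of the 6 fits that left out 1 library. At each of these 10 loci the libraries with a host lay above those without on both scales.

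**Figure D3:**
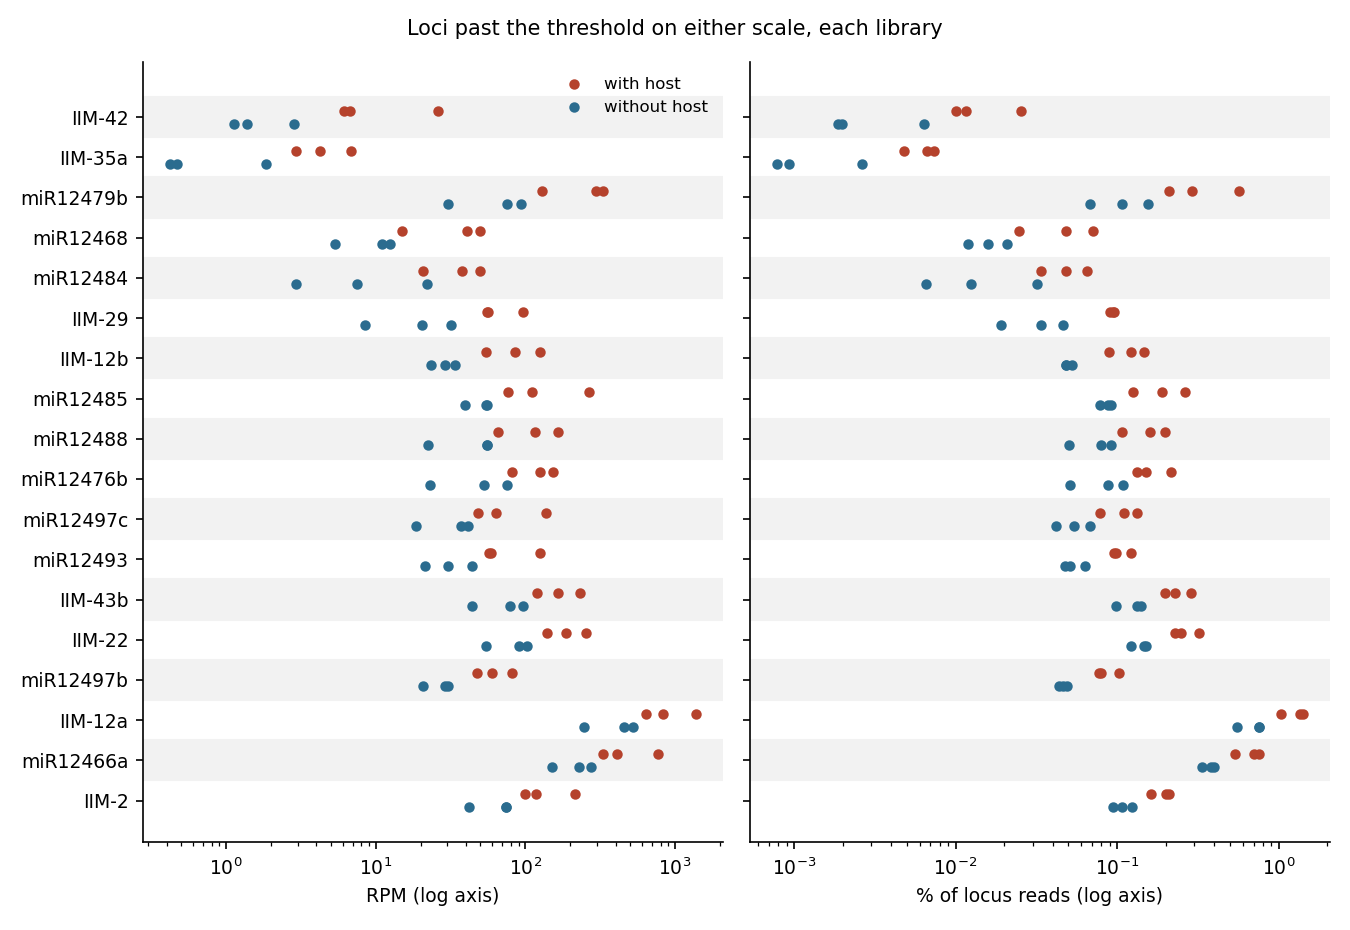
RPM (left) and percent of locus reads (right), both on log axes, of the 18 loci that passed the threshold on either scale, 3 points per group, in the order of their log2 change by share with the largest at the top. Red points (with a host) lie right of blue ones (without) at all 18 loci on the right, and at all but miR12484 on the left.

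The 16 loci called by share summed to 3.21%, 4.75% and 4.28% of locus reads with a host, against 1.69%, 2.19% and 2.25% without, as a description, since this contrast chose them. They thus made up a small part of the locus reads in either group. The called loci came from the middle of the range of abundance. With the loci ranked by mean RPM and cut into 4 equal bins, the numbers called by share were 1 of 35 tested in the lowest bin, 6 of 39 in the next, 7 of 39 in the next and 2 of 39 in the highest. The median log2 change by share in these bins was 0.22, 0.57, 0.46 and 0.04.

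None of the 10 most abundant loci passed on either scale. miR12490a (scaffold 59, 1855139 to 1855224), the leading locus, had 15253, 19261 and 26199 RPM with a host, against 13339, 19461 and 19020 RPM without. Its share of locus reads was 25.0%, 33.2% and 25.6% with a host and 29.9%, 28.0% and 31.7% without, so the groups overlapped on both scales. The log2 change was 0.23 by mapped reads (95% interval -0.45 to 0.91 in edgeR) and -0.10 by share (-0.44 to 0.25). For miR12487b and miR12497f the log2 change by mapped reads was 0.13 and 0.54, and by share -0.19 and 0.19. IIM-51, miR12492a, miR12494b, IIM-1b, IIM-43a, miR12469b and IIM-5a complete the 10 most abundant loci, with log2 changes by share between -0.55 (miR12469b) and 0.13 (miR12492a).

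Together the 10 most abundant loci took 59.3%, 62.7% and 58.8% of locus reads with a host, against 65.4%, 62.9% and 66.8% without. All 3 libraries with a host were below all 3 without, but 62.7% in replicate 2 with a host was close to 62.9% in replicate 2 without. The difference was -4.80 percentage points (exact permutation p = 0.1, the smallest possible, adjusted 0.6). Leaving out any 1 library kept it between -6.01 and -3.90 points. The effective number of loci, a measure of evenness from the Shannon entropy of the shares, was 30.3 ± 4.25 with a host and 25.8 ± 2.14 without (SD, n = 3, exact permutation p = 0.3).

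No locus passed as lower with a host in edgeR with all 6 libraries, and 2 did by share without replicate 1 with a host. At miR12469b and miR12486b the libraries did not overlap. miR12486b took 0.00819%, 0.00929% and 0.0113% of locus reads with a host, against 0.0236%, 0.0178% and 0.0144% without (log2 change by share -0.95, edgeR adjusted p = 0.134). miR12469b took 1.76%, 2.33% and 2.93% with a host, against 4.28%, 2.93% and 3.06% without, and its highest library with a host nearly met the lowest without (log2 change by share -0.55 ± 0.25, SE, edgeR adjusted p = 0.147). By mapped reads its groups overlapped, with a log2 change of -0.09. miR12465b took 0.883%, 0.253% and 0.552% with a host, against 1.17%, 1.19% and 0.838% without (log2 change -0.92, edgeR adjusted p = 0.1), and IIM-28 took 0.374%, 0.230% and 0.521% with a host, against 1.04%, 0.608% and 0.465% without (-0.91, adjusted p = 0.0918). Both were lower in DESeq2, with adjusted p of 0.0436 for IIM-28 and 0.0495 for miR12465b. Among loci that averaged 10 RPM or more in one of the groups, the others of the 10 lowest estimates were IIM-10a, IIM-34a, IIM-76a, IIM-76b, miR12487c and miR12494b, with log2 changes by share between -0.65 (miR12487c) and -0.31 (miR12494b). The counts of IIM-76a and IIM-76b matched within 2 counting SD in all 6 libraries, so their reads may be shared. Among the 10 highest estimates, IIM-55 (log2 change by share 1.08) and IIM-63b (1.13) did not pass.

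A list of 6 families known from earlier work on haustoria, of which miR12480, miR12494, miR12495, miR12496 and miR12497 were in the table with 15 loci, was followed as a group. By mapped reads 0 of its 15 loci passed, and by share 2 did, miR12497b and miR12497c, against 8 of 153 and 16 of 152 over all loci. Its median log2 change was 0.83 by mapped reads and 0.51 by share, beside 0.64 and 0.30 over all loci tested. On each scale the groups did not overlap at 8 of the 15 loci, with values higher in haustoria with a host. Over all loci tested this held at 32.7% by mapped reads and 34.2% by share. The 8 loci include miR12495a with miR12495b, and miR12497a with miR12497b. The counts of these pairs matched within 2 counting SD in 5 and 4 of the 6 libraries, so their reads may be shared. The loci of the list took 14.99%, 16.97% and 14.5% of locus reads with a host, against 12.5%, 13.1% and 14.997% without (exact permutation p = 0.3). Replicate 3 without a host lay among the libraries with a host.

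The 3 members of miR12480 had log2 changes by share of 0.64 (miR12480a), 0.51 (miR12480b) and 0.27 (miR12480c), with edgeR adjusted p of 0.0918, 0.134 and 0.518. miR12480b, the leading member, had 1283, 1489 and 2189 RPM with a host, against 689, 1117 and 979 RPM without, and the groups did not overlap. In the family as a whole, the share of locus reads was 2.93% ± 0.186 with a host and 2.11% ± 0.052 without (SD, n = 3), a log2 change of 0.47 ± 0.19 (SE, edgeR adjusted p = 0.113 over 101 families).

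The 2 copies of miR12494 did not pass. miR12494b had 2059, 1455 and 2055 RPM with a host, against 1351, 2486 and 1912 RPM without, and the groups overlapped. Its log2 change was -0.05 by mapped reads and -0.31 by share (95% interval -0.83 to 0.20 in edgeR), and that of miR12494a was 0.36 and -0.04. The pair miR12495a and miR12495b, on scaffold 165 within 3881 nt of each other, had 336, 484 and 653 RPM and 337, 479 and 664 RPM with a host, against 124, 321 and 306 RPM and 118, 300 and 301 RPM without. The copies had like values in each library, with log2 changes by share of 0.69 and 0.76 (edgeR adjusted p = 0.1 and 0.0876). miR12496 had 159, 220 and 395 RPM with a host, against 100.3, 118 and 129 RPM without. Its log2 change by share was 0.75 ± 0.24 (SE, edgeR adjusted p = 0.0589).

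The 7 copies of miR12497 had unlike changes. Copies a, b, c, d and e lie on scaffold 13b between 575648 and 603020, and copies f and g lie 1290 nt apart on scaffold 111. The first 3 were rare and higher in every library with a host: miR12497b had 47.2, 59.5 and 81.7 RPM with a host, against 20.6, 30.3 and 29.2 RPM without, and miR12497c had 47.9, 64.1 and 137 RPM with a host, against 18.6, 37.3 and 41.0 RPM without. miR12497a, which lies 64 nt from miR12497b, had a log2 change by share of 0.72 (edgeR adjusted p = 0.0929). Copy d, 2523 nt from copy c, had 82.2, 59.5 and 93.6 RPM with a host, against 41.2, 114 and 90.4 RPM without, a log2 change by share of -0.31 (95% interval -0.90 to 0.28).

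Copy f made up most reads of the miR12497 family, 86.8% ± 1.62 with a host and 87.8% ± 3.37 without (SD, n = 3). It had 3850, 4555 and 7204 RPM with a host, against 2676, 3654 and 4401 RPM without, and the groups overlapped. Copy e, at 345, 553 and 567 RPM with a host against 156, 459 and 414 RPM without, and the rare copy g, at most 3.75 RPM in any library, had log2 changes by share of 0.28 and -0.01. The family summed gave 8.15% ± 1.01 of locus reads with a host and 7.06% ± 1.14 without (log2 change 0.21, edgeR adjusted p = 0.556). The called copies b and c held 1.06% and 1.32% of the family's reads with a host and 0.661% and 0.771% without.

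**Figure D4:**
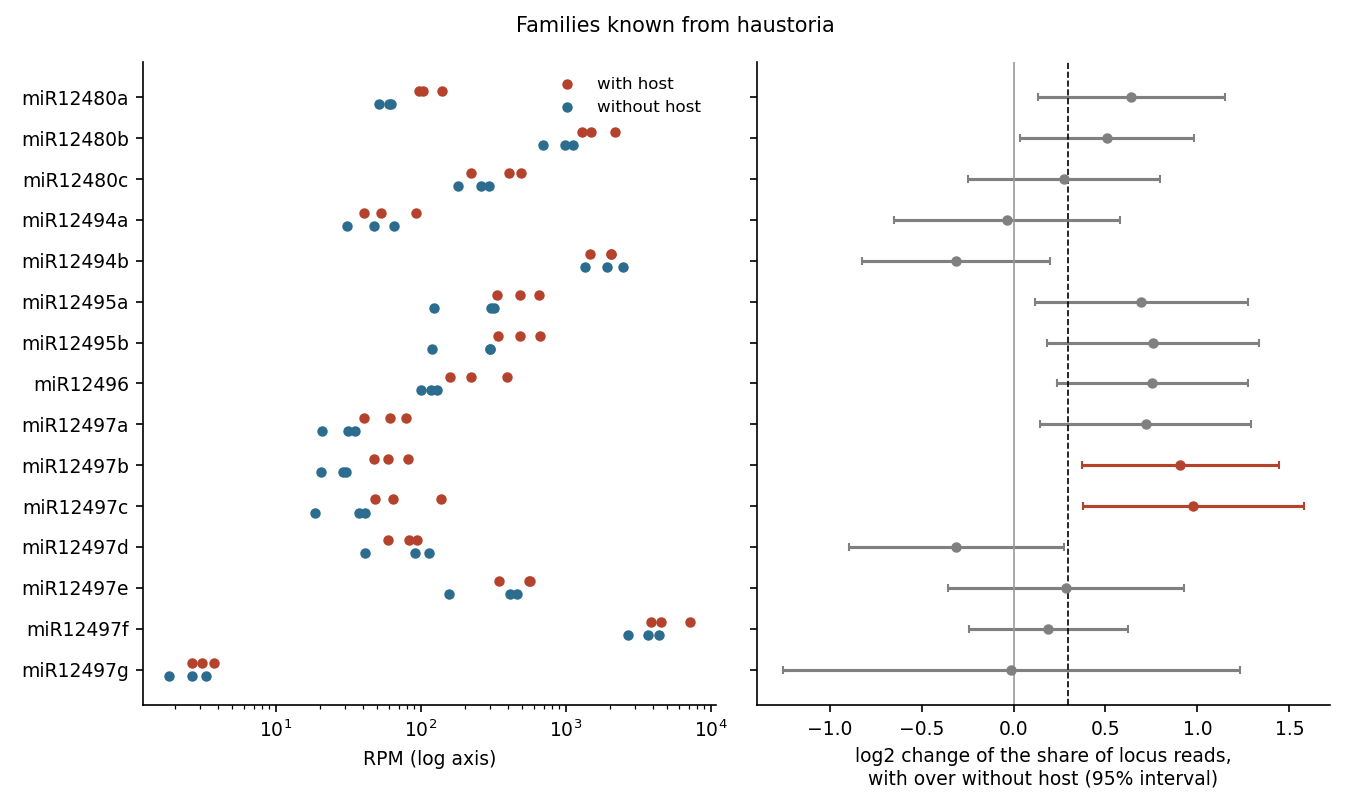
RPM in each library (left, log axis) and log2 change of the share of locus reads with its 95% interval (right) for the 15 loci of families known from haustoria. The dashed line is the median of all loci, 0.30, and miR12497b and miR12497c (red) are the 2 that passed the threshold.

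Members of other families also differed in their changes. Of 103 families, 39 had 2 or more loci, and in 29 of these the same member led in all 6 libraries. The share of a member within its own family does not depend on how libraries are scaled, and for 16 of 92 members (17.4%) it was higher in every library with a host than in any without, while for 12 (13.0%) it was lower. These members came from 13 families, 9 of them of 2 loci, and in a family of 2 loci a higher share of one is a lower share of the other. One of them, IIM-4b, had 0 reads without a host. The examples that follow were chosen after their values were seen. In the miR12465 family, copy b held 39.2%, 16.1% and 30.3% of family reads with a host, against 52.9%, 48.7% and 44.8% without. Copies a and c were both higher in every library with a host. Copy a held 31.7%, 45.1% and 31.1% with a host, against 27.3%, 28.9% and 30.8% without, so its groups nearly met. Copy c held 29.1%, 38.8% and 38.5% with a host, against 19.8%, 22.4% and 24.4% without. The family total had a log2 change by share of -0.21 ± 0.22 (SE, edgeR adjusted p = 0.586).

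In the IIM-35 family the called copy IIM-35a held 35.1%, 40.3% and 36.9% of reads with a host, against 12.2%, 25.6% and 11.1% without. These percentages rest on few reads of IIM-35a, 33, 71 and 131 with a host and 6, 20 and 5 without. IIM-35b remained the more abundant in all 6 libraries. In the IIM-34 family the minor copy IIM-34b held 21.7%, 22.7% and 22.2% with a host, against 11.2%, 15.2% and 16.8% without. In the miR12479 family, miR12479b held 70.1% ± 10.5 with a host and 50.2% ± 12.2 without (SD, n = 3), and the groups overlapped. Its partner miR12479a had a log2 change by share of 0.37 ± 0.23 (SE, edgeR adjusted p = 0.302). How reads that match several copies were assigned is not given in the sources used here, and at 4 of 78 pairs of copies the counts matched within 2 counting SD in all 6 libraries.

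**Figure D5:**
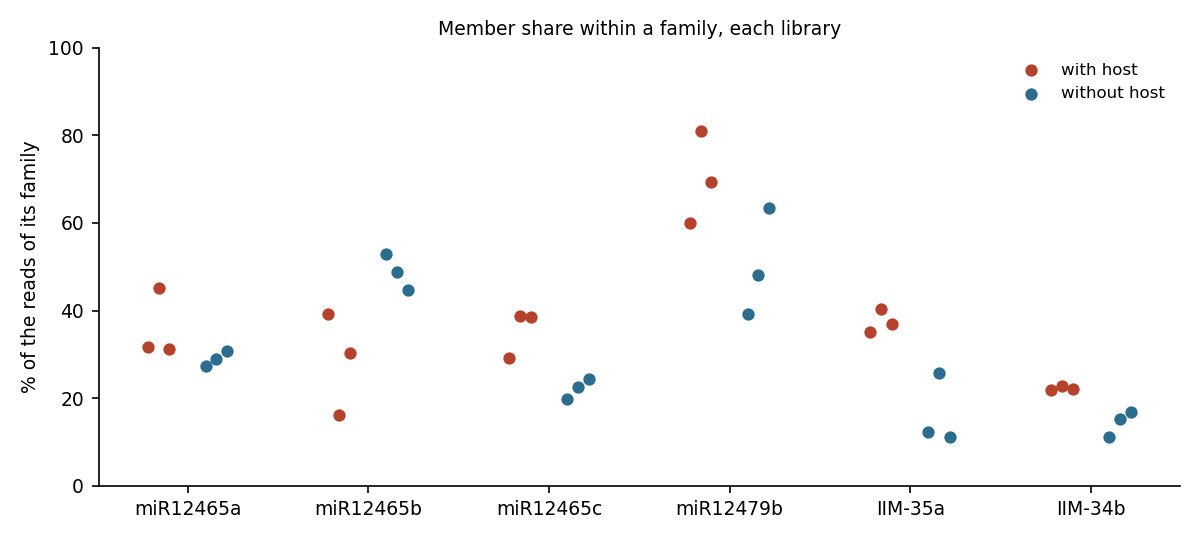
Percent of the reads of its family held by 6 members, for each library with a host (red) and without (blue), in replicate order from left to right. miR12465b lies lower with a host and miR12465a, miR12465c, IIM-35a and IIM-34b higher, with no overlap, while miR12479b overlaps.

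With reads of each family summed, 11 of 101 families were higher by share and 1 by mapped reads. Of the 11, 8 had 1 locus, and the 3 with more loci were IIM-12, miR12466 and miR12479. The 1 family called by mapped reads was IIM-42. Both members of IIM-12 were called by share as single loci, and miR12466 was called through miR12466a. Loci with a miR number and loci with an IIM name had like medians, 0.33 and 0.30 by share, with 9 of 64 and 7 of 88 tested called higher. Their shares of locus reads were 72.1% ± 4.44 and 27.9% ± 4.44 with a host and 72.4% ± 3.01 and 27.6% ± 3.01 without (SD, n = 3, exact permutation p = 0.8).

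Loci close on a scaffold were compared too. Within 10000 nt of each other lay 34 neighbouring pairs, 14 of them copies of 1 family. In 9 of the 34 pairs a locus was called by share, and in 1 both were, miR12497b and miR12497c. Over all loci tested, 16 of 152 (10.5%) were called higher by share. The count of pairs is not a rate per locus, since either locus of a pair could be called. miR12497b and miR12497c also each entered more than 1 pair. Whether called loci lie closer together than other loci was not tested. miR12476b (log2 change by share 1.01) lies 786 nt from IIM-31 (-0.12), IIM-2 (0.82) lies 6267 nt from IIM-3 (-0.02), and miR12493 (0.97) lies 6296 nt from the abundant IIM-5a (-0.18). The copies of IIM-12 each have a copy of miR12464 beside them, IIM-12a at 6986 nt from miR12464a and IIM-12b at 6286 nt from miR12464b. The miR12464 copies had log2 changes by share of 0.72 and 0.68 (edgeR adjusted p = 0.0918 and 0.126).

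The called loci had a median length of 89.0 nt for the 18 called on either scale, and 88.5 nt for the other 138. They lay on 16 scaffolds and belonged to 16 families. Their reads in the 3 shoot tip libraries together ranged from 0 to 125, with a median of 15.5, beside 0 to 3354 and a median of 21.0 for the others.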

How the data were processed

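Small RNA was ligated with random splints and libraries were selected for inserts of 12 to 52 nt, per the labels' protocols. Reads were trimmed with cutadapt 3.5 and Bowtie was among the tools, per the submitters' processing notes. The deposited table gives, per the file headers, raw read counts per locus, the number of mapped reads of the library, and RPM (rpm, the count scaled to mapped reads), which the authors computed. In all 1404 values the deposited RPM equalled the count divided by mapped reads and multiplied by 1000000, within a tolerance of 1e-06. How the loci were chosen, and how reads that match several copies were assigned, is not given in the sources used here. No columns of other series were present (0). A gene annotation of another assembly was not used for the loci, so genes around them were not analysed here.

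Counts of the 6 haustorial libraries were fitted with edgeR 4.0.16 (limma 3.58.1, R 4.3.3), robust quasi-likelihood, with mapped reads or the summed locus reads as the library size and no further scaling factors. Loci needed a level worth about 10 reads at the median library size in at least 3 libraries of either group, and 15 reads in all. Benjamini-Hochberg adjustment ran over all loci tested, with a threshold of 0.05. Standard errors came from the log2 change and its F statistic. Single values per library were compared by exact permutation tests (Python 3.11.15, SciPy 1.17.1), adjusted over 8 values. Alternatives were TMM, DESeq2 size factors, upper quartile scaling, DESeq2 1.42.0, limma-voom, other filters, all 9 libraries, the replicate number as a block, each library left out, the most abundant locus left out of the total, and counts summed by family. TMM, DESeq2 size factors and upper quartile factors were applied to the summed reads of the tested loci, not to mapped reads. Mapped reads ranged from 10680833 to 19244971 over the 6 libraries.

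Named loci were those that passed (at most 15 per direction and scale), the 10 highest and 10 lowest estimates by share that averaged 10 RPM or more in the group where they were higher, the 10 most abundant, the loci of the list, and the leading members of large families. The members, lists and rules were chosen with earlier results of these data known.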

Additional observations from a re-analysis of the deposited data

How the results depend on the processing

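The number of called loci depended on the scale and tool, and the cause was not tested. TMM, DESeq2 size factors and upper quartile scaling start from the summed reads of the tested loci, so they bear on both scales. With each of them edgeR called 0 loci. By mapped reads edgeR called 0 with all 9 libraries and 1 with families summed, while DESeq2 called 24. By share DESeq2 called 31, edgeR with all 9 libraries 0, and edgeR with the most abundant locus left out of the total 11. Leaving out 1 library gave 0 to 10 calls by mapped reads and 0 to 24 by share. The median log2 change was -0.0568 with TMM, -0.0363 with DESeq2 size factors and 0.11 with upper quartile scaling. Same-numbered libraries of the groups had deviations that correlated at 0.379, 0.007 and -0.02 by RPM and 0.239, 0.085 and -0.085 by share and the labels do not tie them, so the numbers were not taken as pairs. With the replicate block edgeR called 6 loci by mapped reads and 20 by share.

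Over the same 153 loci, 14 estimates lay below 0 by mapped reads. The number was 80 with TMM, 78 with DESeq2 size factors and 66 with upper quartile scaling. Among the named loci, those whose estimate changed sign were uncalled. The log2 changes that follow are with TMM, DESeq2 size factors and upper quartile scaling, in that order. They were -0.65, -0.64 and -0.54 for IIM-1b, and -0.36, -0.35 and -0.23 for IIM-43a. IIM-51 had -0.56, -0.54 and -0.40, and IIM-5a had -0.53, -0.51 and -0.40. For miR12487b they were -0.54, -0.52 and -0.38, and for miR12490a -0.45, -0.42 and -0.28. miR12492a had -0.22, -0.20 and -0.053, and miR12494a had -0.38, -0.36 and -0.24. For miR12497f they were -0.17, -0.14 and -0.0015, and for miR12497g -0.37, -0.34 and -0.20. TMM and DESeq2 size factors gave -0.0791 and -0.0635 for miR12480c and -0.0593 and -0.0363 for miR12497e. By mapped reads, limma-voom gave -0.0048 for IIM-1b and 0.0336 for miR12497d, and the replicate block -0.0081 and 0.0362. Summed families can differ in sign from a member: by mapped reads the total of miR12494 had -0.0345, unlike its member miR12494a, and that of miR12497 had 0.55, unlike its member miR12497d. By share the total of IIM-43 had 0.0419, unlike its member IIM-43a, that of miR12486 had 0.15, unlike miR12486b, and that of miR12497 had 0.21, unlike miR12497d and miR12497g. miR12494a had 0.0168 by share with limma-voom and 0.0182 with the replicate block.

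Leaving out 1 library moved the log2 change by mapped reads between -0.36 and 0.54 for IIM-1b, -0.29 and 0.77 for IIM-43a, -0.21 and 0.28 for IIM-51, -0.48 and 0.63 for IIM-5a, -0.67 and 0.17 for miR12469b, -0.17 and 0.31 for miR12487b, -0.0014 and 0.40 for miR12490a, -0.0374 and 0.65 for miR12494a, -0.24 and 0.19 for miR12494b, and -0.38 and 0.25 for miR12497d. By share the ranges were -0.54 to 0.087 for IIM-10a, -0.53 to 0.0221 for IIM-1b, -0.32 to 0.23 for IIM-43a, -0.65 to 0.0288 for IIM-51, -0.54 to 0.0498 for IIM-5a, -0.29 to 0.17 for miR12494a, -0.0189 to 0.45 for miR12497e, and -0.30 to 0.30 for miR12497g. The difference in the share of loci with a miR number was 0.718 percentage points without the most abundant locus and -2.90 to 1.32 with 1 library left out, and that of loci with an IIM name was -0.718 and -1.32 to 2.90.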
